A study of Mus musculus with 9 samples.

Results

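Of the 19072 genes in the deposited tables, 7 are described here: the interferon-induced GTPase genes Gbp2, Gbp3, Gbp4, Gbp5, Gbp7, Igtp and Irgm1. They were taken by their symbols from the gene tables of 9 RNA-seq libraries of 4T1-TGL, a breast cancer cell line of BALB/c mouse origin grown in DMEM/F12 medium. The libraries comprise 3 of cells with wild-type Malat1 (Ctrl) and 3 each of 2 Malat1 knockout lines (KO1 and KO2). All groups share the 4T1-TGL background, with no other allele or agent on the labels. Whether a knockout line is 1 clone, and how Malat1 was disrupted, is not given in the sources used here. Nothing on the labels tells whether the 3 libraries of a group came from different cultures. Each p-value therefore rests on the spread among libraries, and that spread can be technical.

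Interferons signal through surface receptors and JAK kinases to STAT and IRF transcription factors, which bind GAS and ISRE elements in the promoters of responsive genes. Among the most strongly induced targets are 2 families of GTPases that defend the cell from within. The guanylate-binding proteins (Gbp genes) are large GTPases related to dynamin that coat pathogen vacuoles and cytosolic bacteria and promote inflammasome activation. The immunity-related GTPases include effectors that attack vacuole membranes, and the Irgm regulators, among them Igtp (also called Irgm3) and Irgm1, which hold the effectors inactive on the cell's own membranes. In tumour cells these genes are commonly read as a record of interferon exposure.

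The members lie on 3 chromosomes (GRCm38, RefSeq gene spans, with NCBI gene identifiers as in the deposited tables). On chromosome 3, on the + strand, Gbp5 (229898) spans 142496934 to 142522344, Gbp7 (229900) 142530336 to 142550151, Gbp3 (55932) 142560016 to 142573213 and Gbp2 (14469) 142620663 to 142638008. Gbp4 (17472) spans 105115767 to 105139586 on chromosome 5. Igtp (16145) and Irgm1 (15944) lie apart on chromosome 11, at 58199556 to 58207592 and 48865245 to 48871420. Counts are over whole genes.

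The promoters of the members carry a shared sequence, which is shown because most of these genes moved together. A promoter window from RefSeq (GRCm38.p6, 250 bases before to 50 bases after an annotated start) was given for 6 of the 7 members and not for Gbp4. The windows were searched on both strands for the ISRE core, GAAANNGAAA, which reads TTTCNNTTTC on the opposite strand. Capitals mark every match in the stretches below, written 5′ to 3′ on the strand of the gene.
Gbp2 (chr3:142620579-142620638, + strand): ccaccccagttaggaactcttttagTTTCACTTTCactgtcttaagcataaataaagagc
Gbp3 (chr3:142559974-142560015, + strand): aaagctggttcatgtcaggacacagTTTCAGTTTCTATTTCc
Gbp5 (chr3:142496744-142496803, + strand): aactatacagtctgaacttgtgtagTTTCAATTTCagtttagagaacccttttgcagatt
Gbp7 (chr3:142530258-142530317, + strand): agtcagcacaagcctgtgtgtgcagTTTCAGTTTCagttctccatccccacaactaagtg
Igtp (chr11:58199497-58199555, + strand): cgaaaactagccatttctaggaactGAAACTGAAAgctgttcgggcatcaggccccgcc
Irgm1 (chr11:48871421-48871475, - strand): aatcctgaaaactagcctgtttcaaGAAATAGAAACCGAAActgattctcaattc

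All 6 members with a window held the ISRE core, against 3.44% of the 32851 windows in the table. By gene, 3.70% of the 10175 tested genes with a window held it. The match lay between -59 and -50 bases from the start in Gbp2, between -53 and -44 in Gbp7, between -34 and -25 in Igtp, and farther off, between -165 and -156, in Gbp5. Gbp3 and Irgm1 each held 2 overlapping matches, the nearer ones ending at -30 and -15. Gbp3 has 2 windows, and its matches lay in 1 of them. The start of that window lies inside the Gbp3 span given above, so its distances are not counted from the first base of the span. The GAS letters, TTCNNNGAA, occurred in windows of 3 of the 6 members (Gbp5, Gbp7 and Igtp) and in 8.30% of all windows. The kappa B consensus occurred in 1 of the 6, that of Gbp5, and in 4.51% of all windows. No GAS or kappa B match overlapped an ISRE match in these 6 genes. A match is a description of letters in a reference genome of another mouse strain, not a measured binding site. The map of motif matches shows their places.

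**Figure D1:**
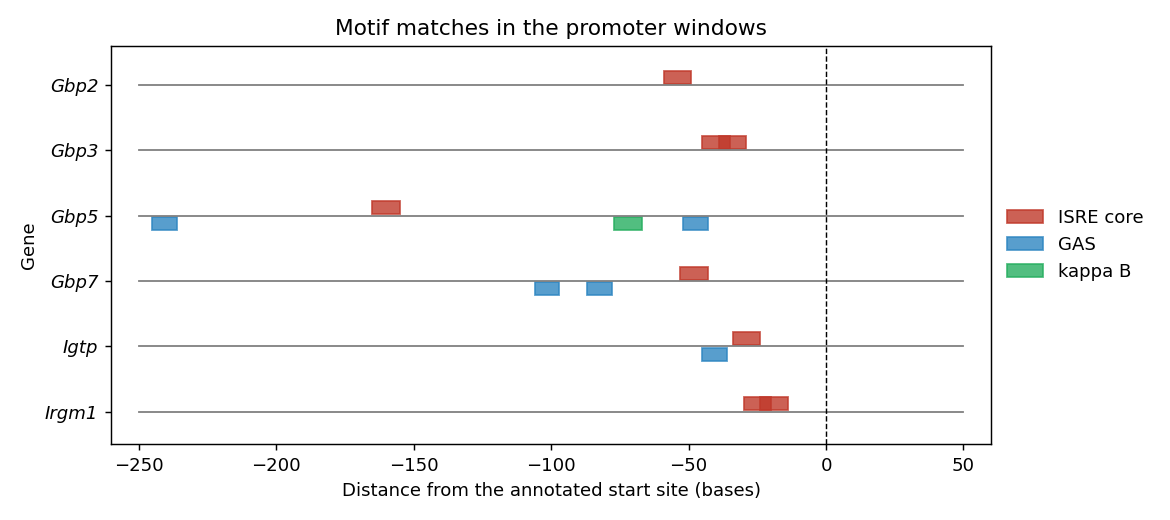
Motif matches in the promoter windows of 6 members. Each grey line is a window, the horizontal axis is the distance in bases from the annotated start (dashed line), and boxes are matches to the ISRE core (red), GAS (blue) and kappa B (green). For Gbp3 the line stands for the 1 of its 2 windows that held a match. Every line drawn holds a red box, and blue boxes are in Gbp5, Gbp7 and Igtp.

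Totals of expected counts ran from 30655924 to 35406395 per library. Malat1 stood at 0.734% of the Ctrl mean in KO1 and at 27.2% in KO2. The carcinoma keratin genes Krt8 and Krt18 reached at least 312 CPM (counts scaled to library size with TMM factors, the levels used below) in each library, but the epithelial genes Epcam and Cdh1 stayed below 1 CPM. The 10 epithelial markers summed to between 787 and 811 CPM in Ctrl, 1277 and 1513 in KO1 and 2251 and 2455 in KO2. Of these 10, 6 stayed below 1 CPM in every library, and the higher sums were mostly those of Krt8 and Krt18. Krt8 had 357 to 387 CPM in Ctrl and 1000 to 1108 in KO2, and Krt18 rose from between 312 and 360 to between 1114 and 1206. Krt7 went the other way, from between 47.8 and 49.7 CPM in Ctrl to between 0.655 and 0.848 in KO2. Of 10 T and NK cell markers 7 were listed in no library, and 8 of 10 macrophage markers were below 1 CPM throughout, including Ptprc and Adgre1. Summed marker levels ran from 37.8 to 41.5 CPM in Ctrl, 45.8 to 58.5 in KO1 and 29.6 to 34.5 in KO2 for macrophages, which Cd68 and Cd14 made up almost alone. T and NK markers summed to between 2.73 and 5.26, 3.77 and 5.17, and 1.63 and 2.26 CPM. Endothelial and fibroblast transcripts stood apart in KO2 replicate 2, where Cdh5 was at 1.15 and Col3a1 at 2.24 CPM. Neither was above 0.31 CPM in any other library. Summed over 8 markers each, endothelial genes ran from 10.8 to 15.7 CPM in Ctrl, 4.16 to 4.34 in KO1 and 2.65 to 7.61 in KO2, and fibroblast genes from 318 to 328, 275 to 301 and 152 to 160. In Ctrl, single genes made up most of these sums: Plvap (10.5 to 15.2 CPM) for endothelial and Pdgfra (278 to 288) for fibroblast genes. Lck (2.55 to 4.95 CPM in Ctrl) likewise made up most of the T and NK sum. The part of other cells in the results below was not tested; without KO2 replicate 2 the counts of members called in KO2 were the same.

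In KO2, 6 of the 7 members fell, to between 1.46% and 13.8% of control, and Irgm1 did not. At an adjusted p under 0.05 (edgeR, quasi-likelihood test over 13682 genes), 29.5% of all tested genes were lower in KO2 than in Ctrl, 24.6% were higher, and 54.1% were called in either direction. The median log2 fold change was -3.44 over the 7 members and -0.03 over all genes. In these bulk libraries, fewer expressing cells and less RNA per cell cannot be told apart.

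Gbp2, a prenylated guanylate-binding protein that marks pathogen vacuoles, had 23.9, 22.3 and 21.8 CPM in the Ctrl libraries and 1.11, 1.36 and 1.63 CPM in KO2. The groups lay far apart, and Gbp2 kept 6.02% of its control level (log2 fold change -4.05 ± 0.13 SE; edgeR adjusted p = 9.72e-10). Gbp4, the member that lies on chromosome 5, had 20.3, 25.1 and 22.6 CPM in Ctrl and 1.18, 1.46 and 1.84 in KO2. It was left with 6.57% (log2 fold change -3.93 ± 0.18 SE; edgeR adjusted p = 1.38e-08). Both genes, the most abundant members in Ctrl by CPM, had similar residual levels in KO2.

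Gbp3 and Gbp7, neighbours on chromosome 3, started lower and fell by nearly as much. Gbp3 had 5.56, 6.81 and 6.17 CPM in Ctrl and 0.622, 0.780 and 0.476 in KO2 (log2 fold change -3.30 ± 0.20 SE; edgeR adjusted p = 1.66e-07). Gbp7, reported to aid assembly of the phagocyte NADPH oxidase, had 6.10, 7.74 and 5.89 CPM in Ctrl. Its KO2 values of 0.557, 0.644 and 0.612 CPM lay close together (log2 fold change -3.44 ± 0.19 SE; edgeR adjusted p = 6.46e-08). The KO2 libraries held between 14 and 23 counts of either gene.

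Gbp5, which promotes inflammasome assembly, was the scarcest member, with 52, 71 and 33 counts in Ctrl. In KO2 it was listed in replicate 2 only, with 2 counts. That is 1.46% of the control level, with a 95% counting interval (exact binomial, counting error only) from 0.175% to 5.36%. EdgeR called the fall (adjusted p = 2.03e-05), but its fitted size rests on those 2 counts. It was -8.64 without KO2 replicate 2, which leaves no count of Gbp5 in KO2, and ranged from -6.09 to -5.34 without any other library.

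Igtp, which encodes an Irgm regulator of the endoplasmic reticulum and lipid droplets, had 6.19, 9.59 and 6.62 CPM in Ctrl. The KO2 libraries had 1.67, 0.479 and 0.934 CPM, the widest spread of any member that fell and was listed in all KO2 libraries (log2 fold change -2.86 ± 0.35 SE; edgeR adjusted p = 7.53e-05). This value depends on how reads were divided between Igtp and its neighbour Irgm2. Irgm2 was not listed in 7 libraries, but had 49.9 counts in KO2 replicate 2 and 50.5 in replicate 3. In those libraries the tables give Igtp a length of 2064 bases, against 3224 in KO2 replicate 1 and 2662 to 2788.5 in Ctrl and KO1. With the reads of both genes summed, the counts were 51, 64 and 78 in KO2 and 206, 341 and 218 in Ctrl. The log2 fold change then shrank to -1.79 (edgeR adjusted p = 6.98e-05). The fall was called either way, and its size is uncertain within that range. Of the read-length stretches (100 bases) of the Igtp transcript, 5.67% also occur in Irgm2.

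Irgm1, the regulator of the lysosome, Golgi and mitochondria, had 11.8, 12.6 and 11.8 CPM in Ctrl and 12.5, 14.1 and 13.3 in KO2. The groups overlapped, with the lowest KO2 value just under the highest Ctrl value. The log2 fold change was 0.15 ± 0.10 (SE; edgeR adjusted p = 0.251). Its 95% interval, from -0.08 to 0.38, corresponds to 94.6% to 130% of control. The intervals of the 5 Gbp members ended at or below 13.8%, and that of Igtp, without Irgm2 reads, at 23.6%. None of the 100-base stretches of the Irgm1 transcript occurs in another annotated gene. Measured from the start used for each window, its ISRE matches, shown above, lie nearer than those of the other 5 members with a window. Measured from the first base of the gene span, the Gbp3 matches lie nearer still.

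**Figure D2:**
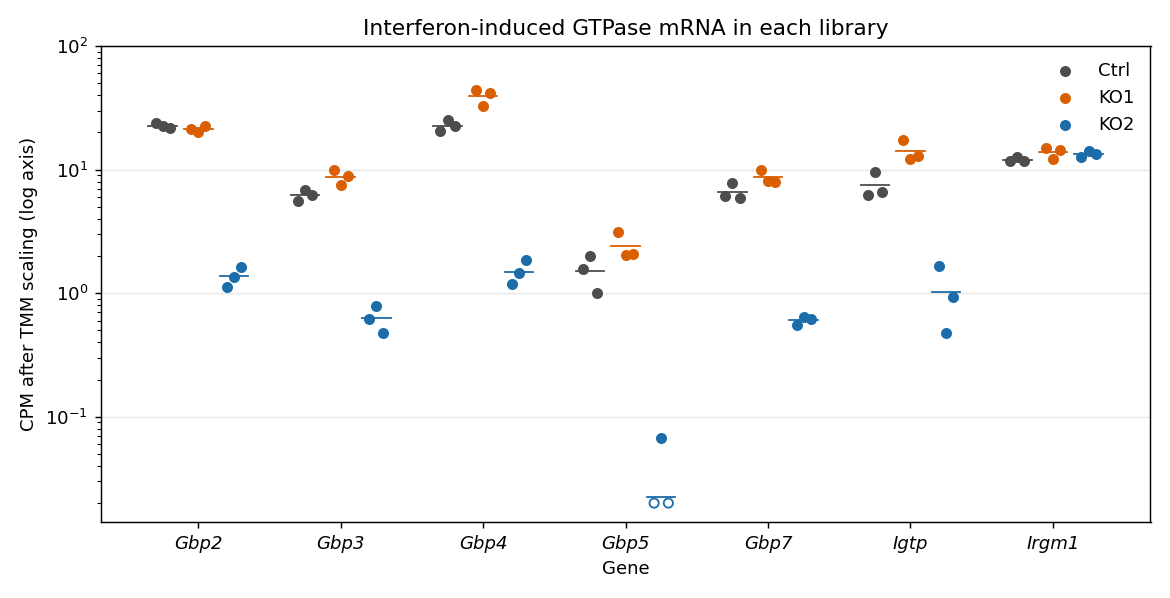
CPM after TMM scaling of each member in each of the 9 libraries, on a log axis. Points are libraries, short lines are group means (n = 3), and open circles at the bottom mark KO2 libraries in which Gbp5 was not listed. KO2 lies far below the other groups for all genes but Irgm1, where the 3 groups lie close together.

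On a scale per transcript length (FPKM), the order of the members in Ctrl was Gbp2 (9.47 ± 0.437; SD, n = 3), Irgm1 (5.72 ± 0.178), Gbp4 (5.20 ± 0.465), Igtp (2.76 ± 0.671), Gbp3 (2.44 ± 0.240), Gbp7 (1.20 ± 0.177) and Gbp5 (0.513 ± 0.166). Irgm1 overlapped Gbp4, and Igtp overlapped Gbp3, in this order, and the remaining neighbours were separate. In KO1 the level of Gbp4 reached 9.32 ± 1.41 FPKM, which overlapped that of Gbp2 at 9.10 ± 0.532 FPKM (SD, n = 3). Irgm1 followed at 6.68 ± 0.745 and overlapped Igtp at 5.48 ± 0.945 FPKM. In KO2 the order changed to Irgm1 at 6.03 ± 0.381 FPKM, with Gbp2 next at 0.54 ± 0.10 (SD, n = 3). In KO2 Gbp2 overlapped Igtp, Igtp overlapped Gbp4 and Gbp4 overlapped Gbp3. Summed over the 7 members, the level was 27.3 ± 1.57 FPKM in Ctrl, 36.6 ± 4.16 in KO1 and 7.63 ± 0.370 in KO2 (SD, n = 3). Irgm1 made up 20.3% to 21.4% of that sum in the Ctrl libraries, 17.8% to 18.9% in KO1 and 77.3% to 80.9% in KO2.

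In KO1, which had the least Malat1, 3 members rose and none fell. The test called 15.6% of all genes higher and 14.9% lower in KO1, 30.5% in all. The median log2 fold change was 0.50 over the members and 0.00 over all genes. Gbp4 rose from the Ctrl values given above to 44.3, 32.9 and 41.3 CPM, with no overlap between the groups (log2 fold change 0.80 ± 0.14 SE; edgeR adjusted p = 0.00111). It was called under all 22 alternatives tried, between 0.71 and 0.91.

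Igtp had 17.4, 12.2 and 12.95 CPM in KO1, all above the highest Ctrl library (log2 fold change 0.92 ± 0.28 SE; edgeR adjusted p = 0.0312). Gbp3 had 9.99, 7.47 and 8.82 CPM, likewise above every Ctrl library (log2 fold change 0.50 ± 0.15 SE; edgeR adjusted p = 0.0297). Leaving out either Ctrl replicate 1 or 3, or either KO1 replicate 1 or 3, ended both calls and left Gbp4 as the 1 member called. Igtp was also lost without KO2 replicate 3 and with no filter on low counts (edgeR adjusted p = 0.0518 and 0.0506). Over these fits the adjusted p reached at most 0.104 for Igtp and 0.102 for Gbp3. With single libraries left out, the log2 fold change ranged from 0.75 to 1.15 for Igtp and from 0.40 to 0.60 for Gbp3.

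Gbp7 and Gbp5 did not pass the test in KO1. Gbp7 had 9.93, 8.08 and 7.99 CPM there, above all Ctrl values; its log2 fold change was 0.40 (edgeR adjusted p = 0.0558), and passed in 5 of 22 alternatives. These were the fit without Ctrl replicate 2 (0.53; edgeR adjusted p = 0.0206), upper-quartile scaling (0.0447), total count scaling (0.0401), limma-voom (0.0435) and limma on log2(FPKM + 1) (0.0292). For Gbp5, at 3.13, 2.04 and 2.08 CPM against 1.56, 2.00 and 1.00 in Ctrl, it was 0.67 (edgeR adjusted p = 0.157). Gbp2 had 21.5, 20.2 and 22.5 CPM in KO1, of which 1 lay within the Ctrl range and the others below it. Its log2 fold change of -0.09 had a 95% interval from -0.31 to 0.14, which does not reach the value of Gbp4. Irgm1, at 14.9, 12.1 and 14.4 CPM, had a value of 0.20 with an interval from -0.03 to 0.43.

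Replicates differed by a shift that many members shared. Ctrl replicate 2 was the highest of its group for 6 of the 7 members, and KO1 replicate 1 likewise for 6. Over all tested genes those libraries were the highest of their group for 42.5% and 39.7% of genes. What distinguishes these libraries was not tested.

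Directly compared, the same 6 members were lower in KO2 than in KO1, and Irgm1 was not called. The test called 29.5% of all genes lower in this contrast, 25.5% higher and 55.0% in either direction. The log2 differences were -3.97 for Gbp2, -3.80 for Gbp3, -4.73 for Gbp4, -3.84 for Gbp7 and -3.78 for Igtp, with edgeR adjusted p-values between 8.99e-06 and 1.34e-09. With Irgm2 reads added, the Igtp value was -2.71. Gbp5 in KO2 stood at 0.918% of its KO1 level (95% counting interval 0.111% to 3.35%). The value of -0.05 ± 0.10 (SE) for Irgm1 had an interval from -0.28 to 0.18. These comparisons share libraries, so the values against Ctrl and between the lines are not independent.

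The wider family was followed on a list of 24 other interferon-induced GTPases, of which 23 were listed and 14 were abundant enough to test. In KO2, 11 of these 14 fell and none rose, against 29.5% lower and 24.6% higher over all tested genes. Some of the 14 passed the filter on low counts only through Ctrl or KO1. Summed over the KO2 libraries, Gm4070 had 0 counts, Ifi47 3, Mx2 4 and Tgtp1 7. Such genes could be called lower in KO2 but hardly higher, so the filter partly fixed that tally. Likewise Iigp1, with 28 counts in Ctrl and 89 in KO1, passed mainly through KO1, where it rose. In KO1, 6 rose and 1 fell, against 15.6% higher and 14.9% lower over all tested genes. Median log2 fold changes were -2.77 in KO2 and 0.95 in KO1, against -0.03 and -0.002 over all genes. Gbp9, the most abundant of these 14 genes by mean CPM in Ctrl and KO1, had 48.1, 42.4 and 46.7 CPM in Ctrl, 102, 93.6 and 90.4 in KO1 and 7.99, 10.3 and 6.73 in KO2. No library of 1 group reached the range of another. Gbp9 rose by 1.06 on the log2 scale in KO1 and fell by 2.45 in KO2. Gbp2b, the neighbour of Gbp2, had values near those of Gbp2, with -0.04 in KO1 (edgeR adjusted p = 0.853) and -4.18 in KO2 (edgeR adjusted p = 2.76e-09). Gbp6 (1.08 in KO1 and -3.23 in KO2), Gbp8 (0.99 and -1.81) and Gbp10 (1.19 and -3.19) rose in KO1 and fell in KO2. The rise of Gbp10 (edgeR adjusted p = 0.038) was lost without any 1 of Ctrl replicates 1, 2 or 3, KO1 replicates 1 or 3, or KO2 replicate 1, with an adjusted p of up to 0.128. Reads of Gbp6 and Gbp10 are hard to assign, since 82.9% and 70.9% of their 100-base stretches occur in other genes. The share was at most 3.81% for Gbp4, Gbp8 and Gbp9, 10.2% for Gbp7, 0.929% for Gbp3, and 0 for Gbp2, Gbp2b and Gbp5.

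Effector GTPases of the immunity-related family were scarce. Iigp1, which attacks the vacuoles of Toxoplasma, had 0.272 ± 0.151 CPM in Ctrl and 0.882 ± 0.375 in KO1 (SD, n = 3). It rose in KO1 by 1.68 on the log2 scale and was not called in KO2 (-1.57; edgeR adjusted p = 0.0676). The rise was lost without Ctrl replicate 1 or 3 or KO1 replicate 1 (adjusted p up to 0.0742), and the fall in KO2 was called without Ctrl replicate 1. Tgtp1 fell in KO2 (-2.34) and had 0.91 in KO1 (edgeR adjusted p = 0.0981), though 83.3% of its stretches are shared, mostly with Tgtp2. Tgtp2 was too low to test. It had 17.6 counts in all in Ctrl and none in KO2, which is at least 2.74-fold lower (floor of 3 counts over the group plus what the listing minimum could hide).

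Ifi47, another effector of this family, was the exception in KO1, where its mean was 0.268 ± 0.126 CPM against 1.22 ± 0.187 in Ctrl (SD, n = 3). This fall, of -2.16 on the log2 scale, passed the test (edgeR adjusted p = 0.00163). In KO2 it kept 3 counts, 2.75% of control (95% counting interval 0.560% to 8.23%). Of 10 other GTPases with a promoter window, 6 held the ISRE core (Gbp2b, Irgm2, Tgtp1, Tgtp2, Gm12250 and 9930111J21Rik1) and 4 did not (Ifi47, Gm5431, 9930111J21Rik2 and Irgq).

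The antiviral dynamin-like genes Mx1 and Mx2 fell in KO2 (-1.77 and -3.60) from levels below 1 CPM, and were not called in KO1 (0.83 and 1.19; edgeR adjusted p = 0.203 and 0.151). The Mx1 call was lost without Ctrl replicate 2 or 3 or KO2 replicate 2 or 3 (adjusted p up to 0.115 over the alternatives), and Mx2 was called in KO1 without KO1 replicate 2. Gm4070, a very large inducible GTPase, had 2.95, 2.18 and 2.38 CPM in Ctrl, 27.3, 25.7 and 27.04 in KO1 and 0 in every KO2 library. It rose by 3.41 on the log2 scale in KO1. With no count in KO2, its level there was at least 19.9-fold below Ctrl, by the same kind of floor. Its sequence is 97.7% shared, chiefly with Gvin1, so which copy the reads came from is uncertain.

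Irgq and F830016B08Rik were called in neither line, though Irgq was called lower in KO1 by DESeq2, by limma-voom and without KO1 replicate 2. Irgq, a diverged family member without a known interferon response, had a log2 fold change of -0.06 in KO2 (edgeR adjusted p = 0.773) and -0.41 in KO1 (edgeR adjusted p = 0.0671). F830016B08Rik, at 0.459 ± 0.189 CPM in Ctrl (SD, n = 3), had -0.40 in KO2 (edgeR adjusted p = 0.434) and 0.09 in KO1 (edgeR adjusted p = 0.891). The rare 9930111J21Rik1 fell in KO2 (-3.09) and had -0.02 in KO1 (edgeR adjusted p = 0.981). Gbp11, Gm12250, Gm4951, Gm5431, 9930111J21Rik2, Irgc1 and Gvin1 were also too low to test, and apart from Gvin1 none reached 0.31 CPM in any library.

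**Figure D3:**
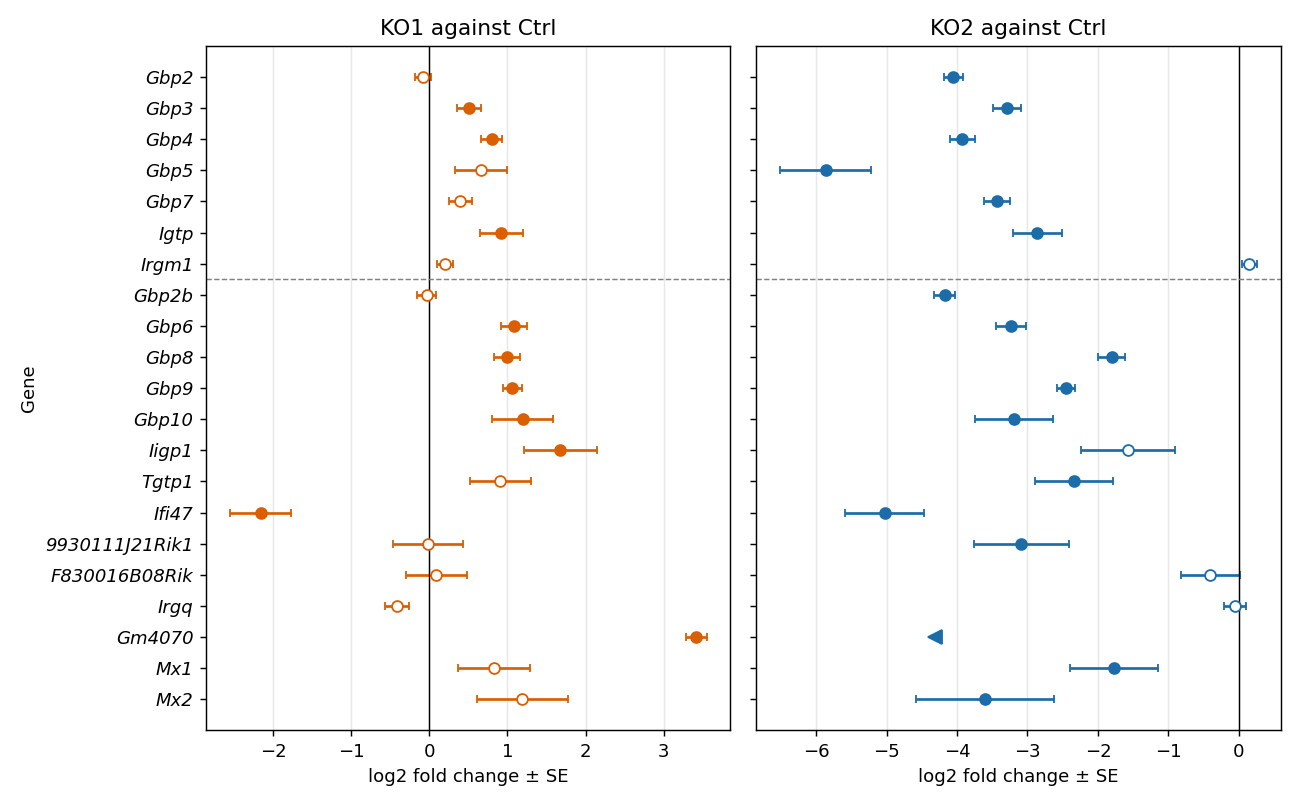
Log2 fold change against Ctrl with its standard error for the 7 members (above the dashed line) and the 14 other tested GTPases, in KO1 (left) and KO2 (right). Filled points passed an edgeR adjusted p under 0.05, and the triangle is the lower bound of the fall of Gm4070, which had 0 counts in KO2. Most genes lie right of 0 in KO1 and left of 0 in KO2; the axes differ in scale.

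The Gbp genes of both chromosomes fell in KO2, and more of those on chromosome 5 were called in KO1. All 5 tested Gbp genes of chromosome 5 rose in KO1, by 0.80 to 1.19 on the log2 scale, though the call of Gbp10, the upper end, depended on single libraries as described, whereas 1 of the 5 on chromosome 3, Gbp3, was called (range -0.09 to 0.67). All 10 fell in KO2. Over all tested genes, 15.6% were higher in KO1 and 29.5% were lower in KO2. Summed CPM of the chromosome 5 genes over that of the chromosome 3 genes was 1.53, 1.45 and 1.60 in Ctrl and 2.84, 2.88 and 2.83 in KO1. The KO1 ratios were close together and apart from Ctrl. In KO2 they were 3.80, 3.54 and 2.75. Gbp9, at a mean of 45.7 CPM in Ctrl, 95.5 in KO1 and 8.34 in KO2, was the largest part of the chromosome 5 sums. Gbp4 over Gbp2, a pair with few shared stretches, gave 0.849, 1.12 and 1.04 in Ctrl, 2.06, 1.63 and 1.84 in KO1, and 1.06, 1.08 and 1.12 in KO2. The difference between the chromosomes was not tested.

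The genes that flank these blocks were set beside them. The block on chromosome 3 spans 142496934 to 142638008, that on chromosome 5 spans 105012513 to 105346476, and the blocks on chromosome 11 span 48865245 to 49096987 (Irgm1, Tgtp and Ifi47) and 58183843 to 58222783 (Igtp and Irgm2), all in GRCm38. Taking the 5 nearest tested genes on either side of each block gave 40 neighbours. These are nearest in order, and some lie far off. Rap1gds1, left of the chromosome 3 block, ends at 139075228, and Havcr2, left of the block of Irgm1, ends at 46481255. In KO2, 14 of them were higher and 11 lower (24.6% and 29.5% of all genes), with log2 fold changes from -1.29 to 1.36 and a median of 0.05. In KO1, 4 were higher and 4 lower (15.6% and 14.9% of all genes), from -1.07 to 2.34. Of the 10 flanking the block of Igtp, which fell in KO2, 5 were higher there and none lower than in Ctrl (median 0.29). The nearest tested gene to the right of the chromosome 3 block, the aminotransferase gene Ccbl2, had -0.87 in KO2, and Pdlim5 to the left had -0.41. Trim7, next to Irgm1, fell by 1.29 in KO2 while Irgm1 itself did not.

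**Figure D4:**
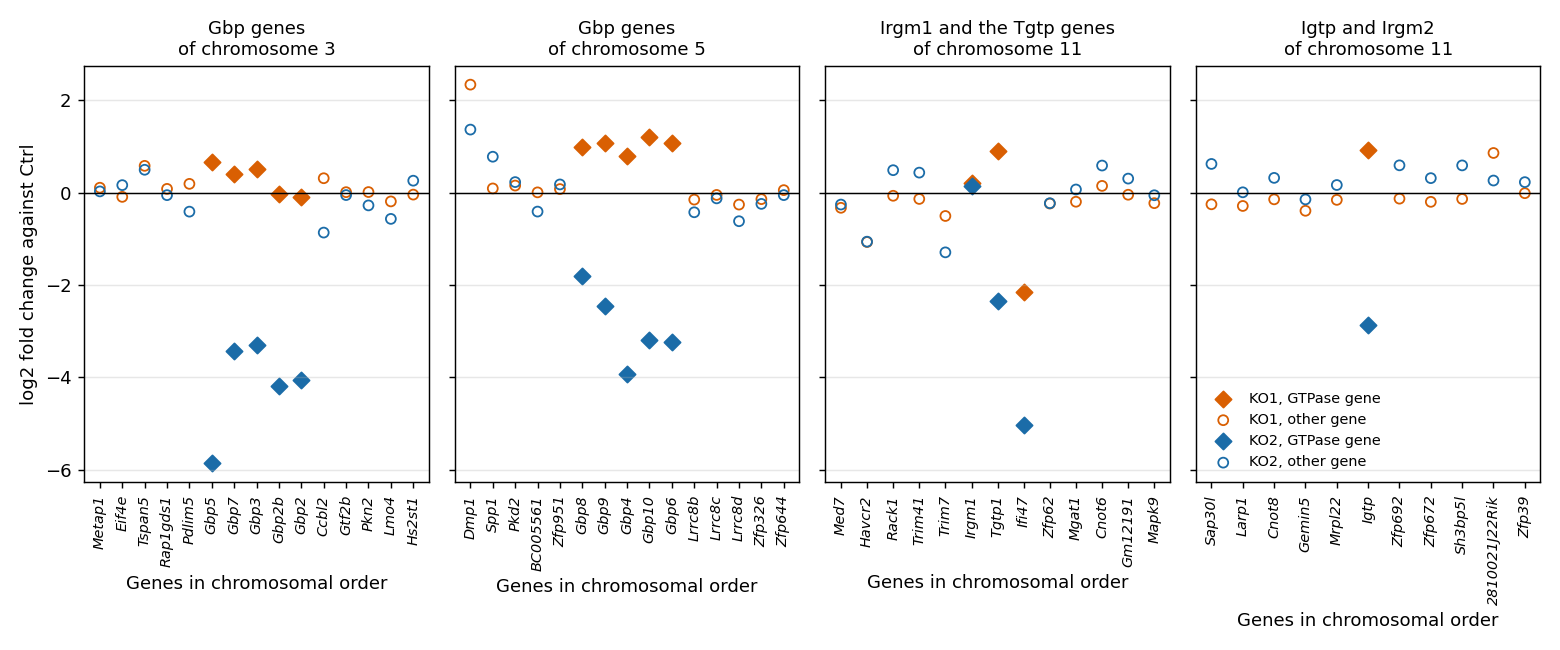
Log2 fold changes against Ctrl of the GTPase genes (diamonds) and of the 5 nearest tested genes on each side (circles), in chromosomal order, for the 4 blocks. The tested GTPase gene 9930111J21Rik1, inside the block of Irgm1, is not drawn (-0.02 in KO1 and -3.09 in KO2). In KO2 (blue) the diamonds lie below all circles of their block except Irgm1, at 0.15; in KO1 (orange) the chromosome 5 diamonds lie between 0.80 and 1.19.

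Of 24 tested genes for interferon ligands, receptors and signal transducers (29 on the list), 15 were lower and 2 higher in KO2. Of all tested genes, 29.5% were lower and 24.6% higher in KO2. In KO1, 7 of the 24 were higher and 2 lower, against 15.6% and 14.9% of all genes. Both chains of the interferon gamma receptor fell in KO2 and were not called in KO1. Ifngr1 had 44.3, 40.6 and 47.1 CPM in Ctrl, 46.0, 44.4 and 45.2 in KO1 and 17.5, 15.1 and 17.8 in KO2 (log2 fold changes of 0.04 and -1.39). For Ifngr2 the values were -0.04 and -1.30. The receptor-bound kinase gene Jak1 fell in KO2 (-0.87), whereas Jak2 did not (0.17; edgeR adjusted p = 0.0999) and was lower in KO1 (-0.27; edgeR adjusted p = 0.0236). The Jak2 call in KO1 was lost with only those groups in the fit, and without Ctrl replicate 1 or 3 or KO1 replicate 1 or 3 (adjusted p up to 0.0915). Without Ctrl replicate 1, Jak2 was called higher in KO2.

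Among the transcription factors, Stat2 (log2 fold change -0.60) and Irf9 (-1.07), which act together at ISRE sites, fell in KO2, as did Irf7 (-1.52) and Stat3 (-1.58). Irf1, a factor needed for full Gbp induction, moved in both directions, from 92.0, 89.1 and 86.2 CPM in Ctrl to 121, 135 and 131 in KO1 and 63.2, 66.7 and 65.5 in KO2. The 3 groups did not overlap (log2 fold change 0.53 and -0.45).

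The genes for the MHC transactivators, Nlrc5 (0.36) and Ciita (2.10), rose in KO1. The Nlrc5 rise was lost without Ctrl replicate 1 or 3 or KO1 replicate 1 or 3 (edgeR adjusted p up to 0.1). In KO2 Nlrc5 fell (-0.38) while Ciita had -0.31 (edgeR adjusted p = 0.645). Usp18, an interferon-induced brake on the type I receptor, rose in KO1 (1.29) and fell in KO2 (-2.22), and its rise was lost without Ctrl replicate 1 or KO1 replicate 1 (edgeR adjusted p up to 0.0683). Feedback inhibitors parted: Socs1 rose in KO1 (0.51) and KO2 (0.53), and Socs3 fell in both (-0.38 and -1.17).

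**Figure D5:**
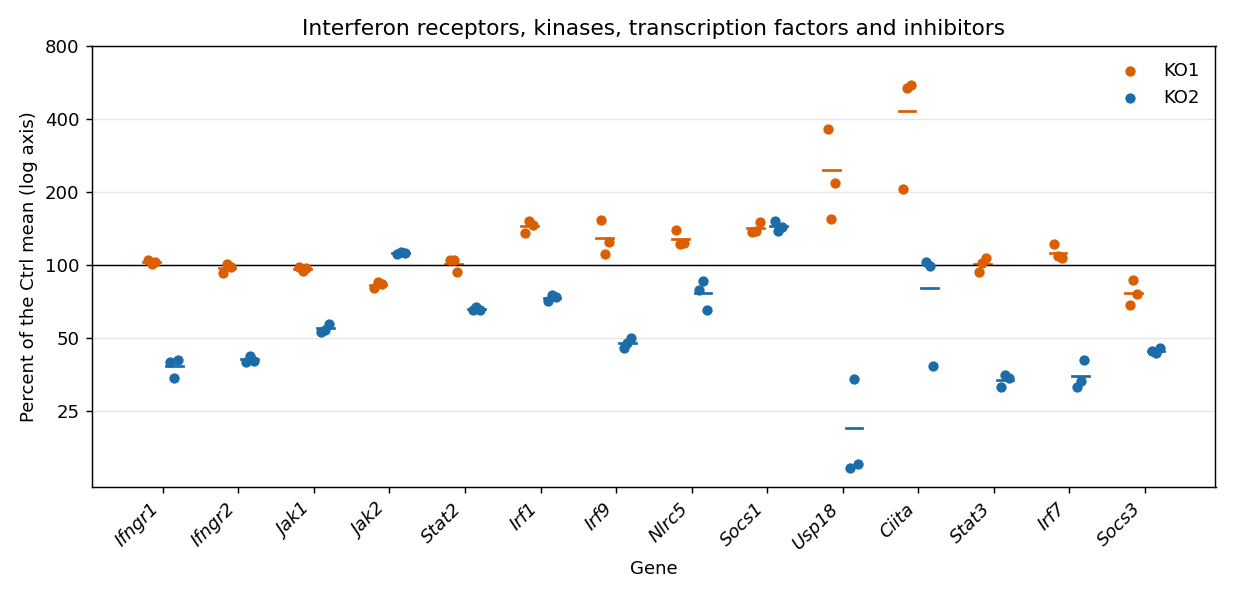
Levels of the named signalling genes in each KO1 and KO2 library as a percent of the Ctrl mean, on a log axis. Points are libraries and short lines are means (n = 3). All KO2 points of Ifngr1, Ifngr2, Irf7, Stat3, Socs3 and Usp18 lie below 50%, and those of Jak2 and Socs1 lie above 100%.

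Of 28 tested genes for proteins that modify the GTPases or act beside them, 10 were higher and 3 lower in KO1, against 15.6% and 14.9% of all genes. In KO2, 8 were higher and 9 lower, against 24.6% and 29.5%. Casp4, the mouse caspase-11 gene whose product senses bacterial lipopolysaccharide that Gbp proteins expose, had 14.0, 16.2 and 14.1 CPM in Ctrl. It rose in KO1 to 27.2, 21.6 and 24.0 CPM and fell in KO2 to 2.98, 3.22 and 2.62 (log2 fold change 0.72 and -2.33), with no overlap between groups. Aim2, the DNA sensor that Gbp proteins assist, rose in both lines (1.78 and 0.84), as did Casp1 (0.95 and 0.29). Nlrp3 fell in both lines, with a log2 fold change of -5.19 in KO1 on 5 counts, and in KO2 to 3 counts, 1.70% of control (95% counting interval 0.347% to 5.03%). Of the ubiquitin-like proteins that direct GTPases to vacuoles, Gabarap (0.49 and 0.69) and Map1lc3a (0.57 and 1.14) rose in both lines. The damage-sensing lectin gene Lgals8 fell in KO2 (-1.05), and Trim21, which binds antibody-coated particles, rose in KO1 (0.89).

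Among 10232 genes outside all lists with at least 5 CPM on average, Ube2e2, Kdm1a, Trit1, Stx6 and Morc3 had the pattern most like the members. The measure was the Pearson correlation of log2 CPM with the mean standardised level of the 7 members over the 9 libraries, and it ran from 0.992 to 0.994. The 9 points form 3 groups and share library depth, so this is a description. The changes of these genes were smaller, with log2 fold changes of -0.61 to -1.15 in KO2 and 0.11 to 0.27 in KO1, and none was called in KO1. Trit1 (0.27; edgeR adjusted p = 0.052) was called there in 10 of 22 alternatives, and Stx6 and Morc3 without KO1 replicate 2.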

How the data were processed

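Expected counts and FPKM per gene and library were used as the authors deposited them. Per the submitters' processing notes, HISAT and RSEM and the builds mm10 and GRCm38 were used, without versions. The deposited expected counts are estimates without normalisation, and each was rounded to a whole number before testing. The authors scaled FPKM by transcript length and library size. Genes below an FPKM of 0.01 are not listed, and were taken as 0. The length column of the deposited files is a transcript length per gene, another quantity than a level. Samples were grouped by title, since the design text repeats a name.

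All 9 libraries entered 1 fit in edgeR 4.0.16 (R 4.3.3; filterByExpr, TMM, robust quasi-likelihood F test, 6 residual degrees of freedom), leaving 13682 genes, with Benjamini-Hochberg adjustment over them and calls at 0.05. The fit was tested on simulated data. An approximate SE was taken from the F statistic (absolute log2 fold change divided by its square root); intervals are at 95%. Replicates differed by more than counting noise (chi-square per gene 8.28 to 61.2), so none was a mere resampling of the reads of another. This does not tell whether they came from different cultures. Shared stretches are exact 100-base matches, the read length, of the longest GENCODE M21 coding transcript to transcripts of other genes. Promoters and positions are from RefSeq (GRCm38.p6).

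The members and lists were chosen with earlier results of these data known. Genes named by rule are Malat1, the members, all listed GTPases, 10 fixed signalling genes and the 5 others with the largest called change, the 8 partner genes with the largest called change, and the 5 genes most like the members. The values of 1 signalling gene are not reported here. Flanking genes and cell type markers were added to show context. Alternatives were other scalings, filters, DESeq2 1.42.0, limma 3.58.1 on counts and FPKM, fewer samples, a replicate block and an adjusted p of 0.01; summing Igtp and Irgm2 was chosen after seeing the data.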

Additional observations from a re-analysis of the deposited data

Results flagged for a closer look

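For 6 members the change from Ctrl differed between the knockout lines by the direct test of KO2 against KO1. Beside the log2 difference between the lines stand the values against Ctrl in KO1 and in KO2, in that order. For Gbp4 it was -4.73 (0.80 and -3.93), for Igtp -3.78 (0.92 and -2.86) and for Gbp3 -3.80 (0.50 and -3.30). These 3 were called in opposite directions against Ctrl in the main fit. The KO1 call held under all 22 alternatives for Gbp4, but was lost in 8 for Igtp and 6 for Gbp3. With Irgm2 reads added, the Igtp value in KO2 shrank to -1.79. For Gbp2 the difference between the lines was -3.97 (-0.09 and -4.05), for Gbp7 -3.84 (0.40 and -3.44), and for Gbp5 -6.53 (0.67 and -5.86), the last fitted on 2 counts in KO2. In each case every KO2 library lay below every KO1 library. KO1 and KO2 are compared with the same 3 Ctrl libraries, and each line is represented by 1 set of 3 libraries, so a property of the line and an effect of Malat1 loss cannot be told apart.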

How the results depend on the processing

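The falls of 6 members in KO2, against Ctrl and against KO1, were called under all 22 alternatives. In KO1 the count of 3 members called became 5 with limma on log2(FPKM + 1), 1 at an adjusted p under 0.01, and 1 to 4 when single libraries were left out. Replicate numbers did not pair the samples (correlations of deviations from -0.34 to 0.05 over 9 same-numbered pairs). With the replicate number as a block, 1 member was called in KO1. Adjusted p under 0.01 left 5 of 9 signalling and 8 of 13 partner genes in KO1. Of the other GTPases, 7 in place of 11 were called in KO2 with a filter of 1 CPM in 3 libraries (8 tested), 7 with only the 2 groups compared (9 tested) and 7 with limma on log2(FPKM + 1). Against KO1 it was 7 in place of 12 with the 1 CPM filter. Why limma on FPKM differed was not tested. Over all alternatives, 442 of 462 values of single members kept their side of the threshold, 14 no longer passed and 6 newly passed. Among values that passed in the main fit or the alternative, 0 changed direction. Values that passed in neither could change sign, as for Irgm1 in KO2 against KO1 (-0.159 to 0.009). Genes with few counts (Gbp5, Ifi47, Mx1, Mx2, Tgtp1) are limited by depth.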
